A study of Mus musculus with 40 samples.

Results

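The genes described here are 37 genes of the unfolded protein response of the endoplasmic reticulum, taken as a named list from 43629 genes in the count table. The list was set by function and used no measured value as a criterion, but it was chosen with earlier results of these data known. Of the 37, 36 had enough counts to be tested in the responses to social interaction, and 35 in the comparisons between naïve groups. Trib3, a pseudokinase gene induced by ATF4, reached at most 8 counts in any library and passed in no comparison, and Derl3 missed the minimum in the naïve comparisons.

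RNA was measured in the left amygdala of male Swiss Webster mice aged 10 weeks. The 40 libraries fell into 6 groups: conventionally colonised mice (CON, 4 libraries), germ-free mice that never had microbes (GF, 4), and mice born germ-free and given a conventional microbiota at weaning through used CON bedding (exGF, 4), all naïve, and the same 3 kinds of mice killed 1 hour after a three-chamber social interaction test (CON-SI, 8 libraries; GF-SI, 12; exGF-SI, 8). The labels name no engineered allele and no drug in any group. Each naïve library pooled RNA of 2 or 3 animals, except that 1 GF pool came from a single animal by the study's quality sheet, and each SI library came from 1 animal, so that social interaction, handling, the new arena, and single animals against pools cannot be told apart. CON and GF mice also came from separate breeding stock.

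Library totals ran from 7291810 to 19961958 counts. In 5 libraries (2 CON, 2 exGF and 1 exGF-SI), Gm42418, a gene that overlaps ribosomal RNA sequence, took more than 5% of all counts, up to 32.3%, and in the other 35 at most 1.75%. Summed CPM (counts scaled to library size) of 8 amygdala markers lay between 207 and 459 in every library. The group medians of this sum were 411 in CON and 317 in CON-SI, 364 in GF and 378 in GF-SI. In exGF and exGF-SI they were 396 and 307. Among the 8 is Wfs1, which is also in the lists of other genes of the machinery followed below. Summed CPM of 8 choroid plexus markers lay between 23.8 and 34.0 in GF, 22.2 and 52.2 in exGF and 39.6 and 304 in CON, but reached 802 and 1026 in 2 GF-SI libraries and 836, 938 and 1476 in 3 exGF-SI libraries. No pair of libraries agreed within sampling noise.

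The unfolded protein response senses misfolded proteins in the endoplasmic reticulum through 3 membrane sensors. IRE1, encoded by Ern1, splices Xbp1 mRNA. ATF6 is cut to release a transcription factor, and PERK, encoded by Eif2ak3, slows translation while favouring that of ATF4. The targets include lumenal chaperones, disulfide isomerases, and the machinery that extracts misfolded proteins for degradation. In brain tissue the pathway serves the secretory and membrane protein load of neurons and glia.

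The DNA elements through which these factors act sit close to the transcription start. Promoter windows of 250 bases before to 50 bases after the start (RefSeq, GRCm38.p6) were held for 32 of the 37 genes, and no window was held for Atf6, Derl1, Hyou1, Manf and Ppp1r15b. Both strands were searched for the endoplasmic reticulum stress element (ERSE, CCAAT, any 9 bases, then CCACG), bound by ATF6 together with NF-Y, for ERSE-II (ATTGG, any 1 base, then CCACG), for the XBP1 and ATF6 element UPRE (TGACGTGG), and for the core of the ATF4 and CHOP element (CARE, TGATGNAA). ERSE, ERSE-II and UPRE share the letters CCACG or their complement and can overlap, but none of the matches in these genes did. An ERSE match was found in 9 of the 32 windows and in 39 of all 32851 promoter windows (0.119%). ERSE-II was found in 2 of the 32 (0.0365% of all windows), UPRE in 1 (0.676%) and CARE in 3 (3.97%).

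The windows below show ERSE in genes that rose in every microbial group, the pair of ERSE matches of Hsp90b1, the ERSE-II and CARE matches of Herpud1, and the ERSE of Syvn1, a gene that passed in no response and was chosen for display after its values were seen. Capitals mark the fixed letters of each match, written 5′ to 3′ along the gene's strand. The stretch shown for Hspa5 was chr2:34771985-34772083, plus strand, with its match 65 bases before the start. Those for Creld2 and Calr were chr15:88819480-88819578, plus strand, and chr8:84847035-84847133, minus strand. Dnajc3 is shown at chr14:118937787-118937885, plus strand, and Pdia6 at chr12:17266451-17266549, plus strand. The longer stretch of Hsp90b1 was chr10:86705493-86705694, minus strand. Herpud1 is shown at chr8:94386277-94386427, plus strand, and Syvn1 at chr19:6046492-6046575, plus strand.
Hspa5: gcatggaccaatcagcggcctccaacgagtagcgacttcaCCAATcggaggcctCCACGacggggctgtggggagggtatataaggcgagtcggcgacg
Creld2: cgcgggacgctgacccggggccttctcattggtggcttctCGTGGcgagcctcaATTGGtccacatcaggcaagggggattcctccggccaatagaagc
Calr: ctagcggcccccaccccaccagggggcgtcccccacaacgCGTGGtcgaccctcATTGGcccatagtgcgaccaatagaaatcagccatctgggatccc
Dnajc3: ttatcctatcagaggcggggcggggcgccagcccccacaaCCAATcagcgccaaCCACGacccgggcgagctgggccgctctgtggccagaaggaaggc
Pdia6: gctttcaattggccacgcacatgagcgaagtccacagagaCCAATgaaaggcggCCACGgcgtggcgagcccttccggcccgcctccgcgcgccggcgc
Hsp90b1: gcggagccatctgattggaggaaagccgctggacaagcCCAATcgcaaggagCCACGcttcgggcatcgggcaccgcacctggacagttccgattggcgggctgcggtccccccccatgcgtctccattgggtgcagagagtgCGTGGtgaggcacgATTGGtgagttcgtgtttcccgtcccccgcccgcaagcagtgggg
Herpud1: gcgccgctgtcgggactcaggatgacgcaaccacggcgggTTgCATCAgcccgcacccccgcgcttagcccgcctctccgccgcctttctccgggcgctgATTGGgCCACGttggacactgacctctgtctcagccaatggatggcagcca
Syvn1: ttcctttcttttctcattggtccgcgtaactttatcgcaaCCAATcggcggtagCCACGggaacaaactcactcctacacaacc

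In Creld2 and Calr the element lay on the opposite strand, so that CGTGG precedes ATTGG, and Hsp90b1 carried 1 match on each strand, 212 and 107 bases before the start. Canx and Derl3 also held ERSE, Dnajb11 held ERSE-II 8 bases after its start, Sec24d held UPRE, and Chac1 and Trib3 held CARE. No ERSE or ERSE-II match was found in the windows of Sdf2l1, Pdia4 or Xbp1, which says only that those letters were not there.

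**Figure D1:**
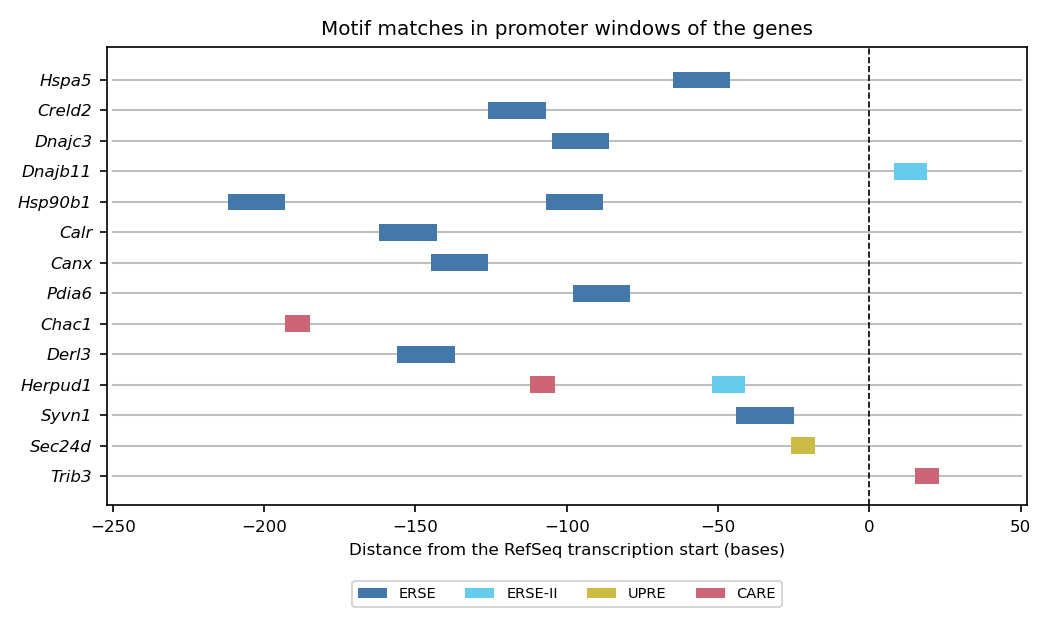
Motif matches in the promoter windows of the 14 genes that held any. The horizontal axis gives the distance in bases from the RefSeq transcription start (dashed line), bars show the extent of each match, and the first bases of the ERSE matches lie between 212 and 44 bases before the start.

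Social interaction was compared with the naïve state in each microbial group. In the main test, genes of the list rose in every group and none fell. In CON, 14 of 36 genes rose and 0 fell (edgeR quasi-likelihood test, adjusted p at most 0.1), where 3.72% of all 15220 genes tested passed and 2.35% passed upward. In GF, 19 of 36 rose and 0 fell, against 13.7% of 15443 genes in either direction and 7.87% upward. In exGF, 14 of 36 rose and 0 fell, against 7.61% of 15264 genes and 4.6% upward. The median log2 fold change of the 36 genes was 0.24 in CON, 0.28 in GF and 0.21 in exGF, and that of all genes tested lay within 0.01 of 0 each time.

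11 genes rose in all 3 microbial groups: the chaperones and co-chaperones Hspa5, Sdf2l1, Creld2, Manf, Dnajb11, Dnajc3 and Calr, the disulfide isomerases Pdia4 and Pdia6, the transcription factor gene Xbp1, and the phosphatase subunit gene Ppp1r15b. 4 rose in exactly 2 groups, 6 in 1 and 16 in none. The share of all genes that rose in 3, 2 or 1 groups was not computed. Libraries did not overlap for 12 of 36 genes in CON (2.45% of all genes tested did not overlap, higher after social interaction), for 14 in GF (1.98%) and for 11 in exGF (2.87%). In this bulk tissue, a change in the number of cells of a type and a change in RNA per cell cannot be told apart. The p-values measure only the spread between these libraries.

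The CON and exGF counts rest on few naïve pools. Without the 5 libraries rich in Gm42418, which leaves 2 naïve pools in each of those groups, only Hspa5 passed in CON and 6 genes passed in exGF (Hspa5, Sdf2l1, Creld2, Dnajc3, Pdia3 and Pdia4), while the calls that were lost had log2 fold changes from 0.27 to 1.33. In that setting 26 of all 15887 genes tested passed in CON and 155 of 15854 in exGF. Leaving out the pools exGF-P2, exGF-P3 or exGF-P4 lowered the exGF count to 5, 8 and 6. The share of all genes passing in those fits is not given, so these drops cannot be read as particular to the list. Without the choroid plexus rich libraries, 19 genes rose in GF and 14 in exGF. Of all genes tested, 1429 of 15354 passed there in GF and 1133 of 14699 in exGF. Sec61b also fell in exGF in that setting (-0.48, edgeR adjusted p = 0.0716). DESeq2 called the same fall with all libraries (-0.44, adjusted p = 0.0776). So did edgeR in a single fit of all 6 groups (-0.44, adjusted p = 0.0777) and without exGF-S9 (-0.53, adjusted p = 0.0482).

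**Figure D2:**
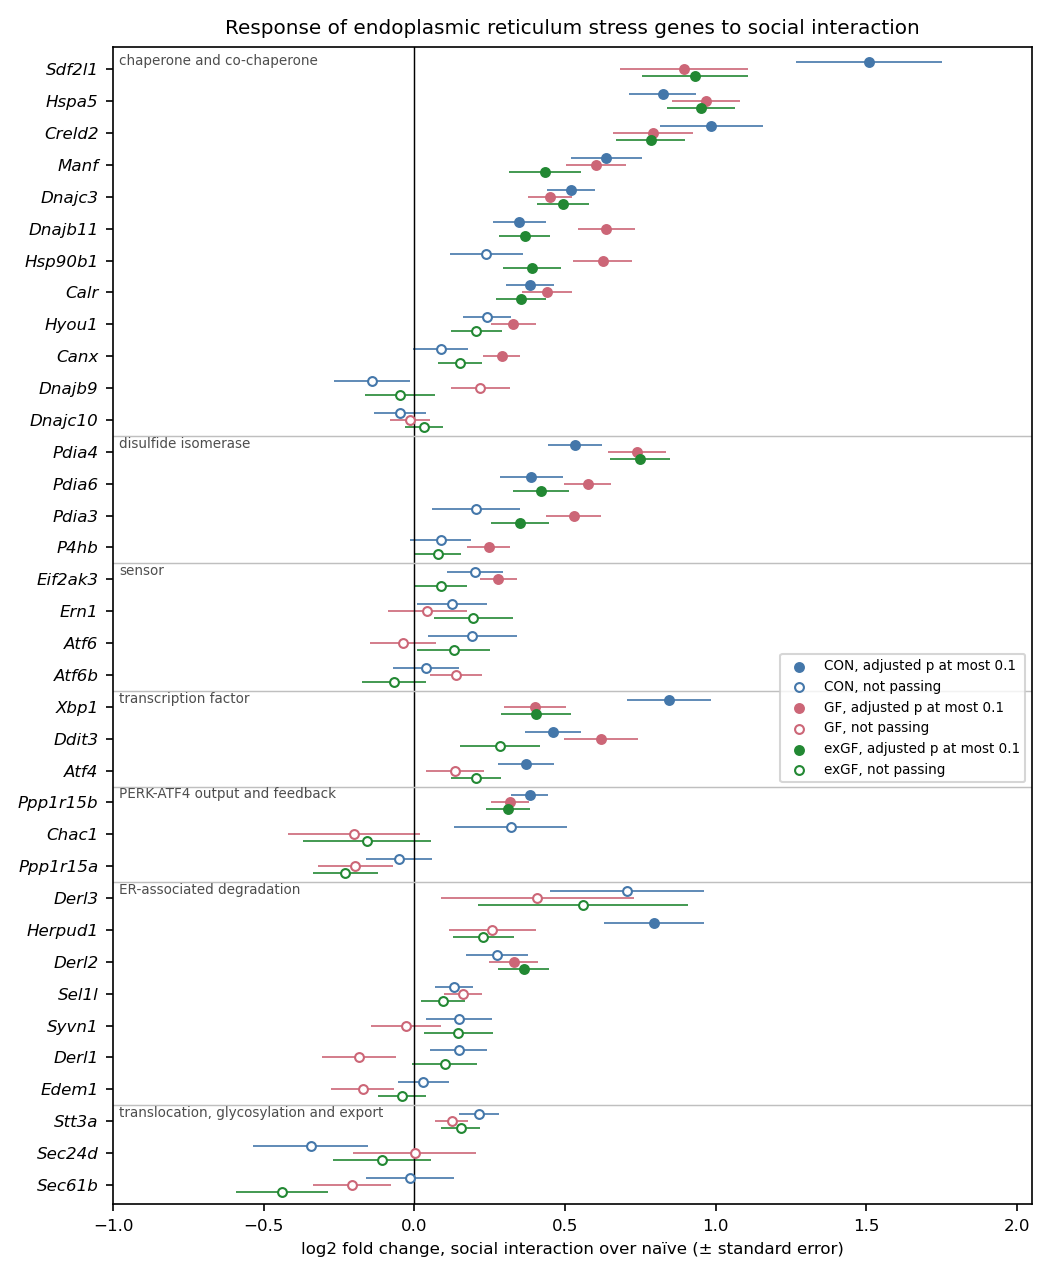
Log2 fold change of the 36 tested genes after social interaction, grouped by role, with the standard error as a horizontal bar. Blue points are CON, red GF and green exGF, and filled points passed at an adjusted p of 0.1 or less. All filled points lie to the right of 0, with Sdf2l1 in CON at 1.51 the furthest.

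In the account by gene, levels are CPM after TMM scaling, naïve pools are given one by one, and each SI group is given by its lowest, median and highest library. Fold changes are log2 of SI over naïve ± SE with edgeR's adjusted p, and gene positions are on GRCm38.

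Chaperones were the largest class, and 7 of 12 rose in CON, 10 in GF and 8 in exGF. Of all genes tested, 2.35%, 7.87% and 4.6% rose. Hspa5 (chr2:34771970-34777547, plus strand) encodes BiP, the lumenal HSP70 that binds unfolded chains and holds the sensors inactive. It read 275, 254, 268 and 246 CPM in the CON pools and 368, 474 and 559 in CON-SI. In GF, Hspa5 read 274, 227, 194 and 213 CPM before and 358, 439 and 584 after. In exGF, Hspa5 read 315, 269.8, 252 and 237 CPM before and 405, 518 and 637 after. Every SI library lay above every naïve pool of its group. The fold changes were 0.82 ± 0.11 (adjusted p = 0.00272) in CON, 0.97 ± 0.11 (adjusted p = 8.35e-05) in GF and 0.95 ± 0.11 (adjusted p = 0.00209) in exGF. Hspa5 passed under every alternative tried in all 3 groups.

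Sdf2l1 (chr16:17130138-17132383, minus strand) encodes a small lumenal partner of BiP and DnaJ proteins. It was scarce, with 1.62, 2.74, 1.71 and 1.92 CPM in the CON pools and 3.87, 5.53 and 8.73 in CON-SI. For Sdf2l1 the GF pools gave 2.8, 2.47, 2.07 and 1.5 CPM and GF-SI 2.54, 4.14 and 5.56. The exGF pools gave 4.07, 1.97, 2.39 and 2.61 CPM and exGF-SI 4.33, 5.34 and 6.01. Groups did not overlap in CON and exGF, and 1 of 12 GF-SI libraries fell below the highest GF pool. Sdf2l1 changed by 1.51 ± 0.24 (adjusted p = 0.00885) in CON, 0.89 ± 0.21 (adjusted p = 0.016) in GF and 0.93 ± 0.18 (adjusted p = 0.0181) in exGF.

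Creld2 (chr15:88819646-88826683, plus strand), a secreted protein of the endoplasmic reticulum with disulfide isomerase activity, read 7.38, 7.54, 10.1 and 9.79 CPM in the CON pools and 13.6, 16.6 and 25.3 in CON-SI. Its GF pools gave 8.47, 7.05, 7.33 and 8.33 CPM and GF-SI 9.96, 13.4 and 17.6. Its exGF pools gave 12, 8.1, 9.7 and 9.57 CPM and exGF-SI 13.8, 17.2 and 19.4. No SI library overlapped the naïve pools of its group. Creld2 rose by 0.99 ± 0.17 (adjusted p = 0.0136) in CON, 0.79 ± 0.13 (adjusted p = 0.0019) in GF and 0.78 ± 0.11 (adjusted p = 0.00762) in exGF. Manf (chr9:106838312-106891979, minus strand) encodes a neurotrophic factor held in the endoplasmic reticulum by BiP, and shares 166 exon bases with an antisense gene. Manf read 19.1, 26.8, 18.5 and 20.9 CPM in CON and 29.3, 32.3 and 42.5 in CON-SI, 19.7, 21.2, 15 and 20.3 in GF and 23.7, 29.6 and 34.8 in GF-SI. In exGF, Manf read 24.5, 24.5, 26.1 and 18.3 CPM before and 26.8, 31.2 and 39 after. Manf too did not overlap in any group, though in exGF the gap between the highest pool and the lowest SI library was narrow. It rose by 0.64 ± 0.12 (adjusted p = 0.0189), 0.60 ± 0.10 (adjusted p = 0.00166) and 0.43 ± 0.12 (adjusted p = 0.0632) in CON, GF and exGF.

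**Figure D3:**
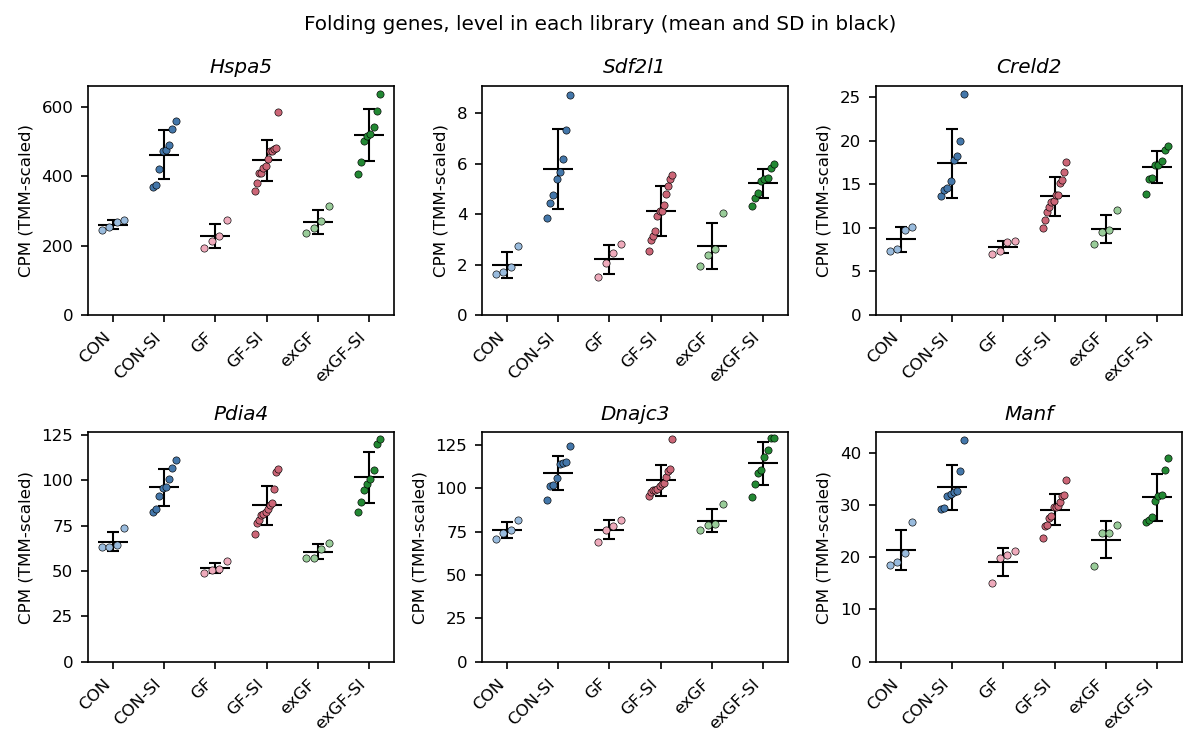
CPM of 6 folding genes in each of the 40 libraries by group, with the group mean and SD in black. In each panel the SI groups sit above their naïve groups, without overlap in every group for Hspa5, Creld2, Pdia4, Dnajc3 and Manf.

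Dnajc3 and Dnajb11 encode lumenal J-domain partners of BiP. Dnajc3 (chr14:118937976-118981697, plus strand) read 70.9, 74.3, 76.2 and 82 CPM in CON and 93.5, 110.2 and 124 in CON-SI. Dnajc3 read 78.2, 76.1, 68.8 and 81.9 CPM in GF and 95.5, 102 and 128 in GF-SI. In exGF, Dnajc3 read 90.8, 79.7, 76.2 and 79.1 CPM before and 95.3, 114 and 129 after. All SI libraries exceeded all pools of their group. The fold changes of Dnajc3 were close to each other, at 0.52 ± 0.08 (adjusted p = 0.0074) in CON, 0.45 ± 0.07 (adjusted p = 0.00149) in GF and 0.49 ± 0.09 (adjusted p = 0.0137) in exGF. Dnajb11 (chr16:22857845-22879634, plus strand) read 57.2, 54.1, 52.8 and 44.3 CPM in CON and 55.5, 66.9 and 72.9 in CON-SI. Dnajb11 read 45.6, 43.2, 36.3 and 46.5 CPM in GF and 51.4, 67.4 and 81.4 in GF-SI. In exGF, Dnajb11 read 52.8, 53.7, 50.1 and 48.7 CPM before and 55.3, 65.6 and 77.1 after. Only the CON groups overlapped, where 7 of 8 SI libraries lay above the pools. Dnajb11 rose by 0.35 ± 0.09 (adjusted p = 0.067), 0.64 ± 0.10 (adjusted p = 0.000862) and 0.37 ± 0.08 (adjusted p = 0.0379) in CON, GF and exGF.

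Calr and Canx encode calreticulin and calnexin, the lectin chaperones of glycoproteins. Calr (chr8:84841850-84846934, minus strand) had the highest level per length of the 37, at a mean RPKM (CPM per kilobase of exon) of 148 over all libraries, ahead of Hsp90b1 at 137, Canx at 114 and Hspa5 at 95.8. Calr read 355, 348, 319 and 408 CPM in CON and 416, 463 and 519 in CON-SI. In GF, Calr read 378, 360.2, 328 and 305 CPM before and 406, 457 and 543 after. In exGF, Calr read 308, 329.9, 352 and 393 CPM before and 398, 430.0 and 531 after. The groups did not overlap, though by only a few CPM in exGF. Calr rose by 0.38 ± 0.08 (adjusted p = 0.0309), 0.44 ± 0.08 (adjusted p = 0.00468) and 0.35 ± 0.08 (adjusted p = 0.0403) in CON, GF and exGF. Canx (chr11:50293961-50325673, minus strand) read 533, 511, 463 and 445 CPM in CON and 434, 523 and 616 in CON-SI. Canx read 502, 467, 436 and 503 CPM in GF and 518, 589.7 and 621 in GF-SI. In exGF, Canx read 499, 496, 516 and 489.6 CPM before and 486, 560.5 and 665 after. Canx separated only in GF and rose there, by 0.29 ± 0.06 (adjusted p = 0.00913), with 0.09 ± 0.09 (adjusted p = 0.678) in CON and 0.15 ± 0.07 (adjusted p = 0.246) in exGF.

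Hsp90b1 and Hyou1 encode GRP94 and GRP170, the lumenal HSP90 and a large nucleotide exchanger for BiP. Hsp90b1 (chr10:86690209-86705509, minus strand) shares 415 exon bases with the antisense gene 1810014B01Rik, and counting did not use strand. Hsp90b1 read 563, 469, 489.7 and 413 CPM in CON and 462, 549 and 734 in CON-SI. Hsp90b1 read 453, 376, 342 and 429.7 CPM in GF and 512, 599 and 732 in GF-SI. In exGF, Hsp90b1 read 518, 428, 448 and 424 CPM before and 482, 598 and 709 after. Groups were separate in GF only. Hsp90b1 rose in GF by 0.62 ± 0.10 (adjusted p = 0.00122) and in exGF by 0.39 ± 0.10 (adjusted p = 0.0448), with 0.24 ± 0.12 (adjusted p = 0.344) in CON. Hyou1 (chr9:44379490-44392369, plus strand) read 126, 119, 129 and 117 CPM in CON and 121, 145 and 164 in CON-SI. Hyou1 read 123, 122, 111 and 102 CPM in GF and 123, 145 and 173 in GF-SI. In exGF, Hyou1 read 117, 117, 125 and 119 CPM before and 117, 135 and 171 after. Hyou1 groups overlapped each time, and it rose in GF by 0.33 ± 0.07 (adjusted p = 0.0124), with 0.24 ± 0.08 (adjusted p = 0.141) in CON and 0.21 ± 0.08 (adjusted p = 0.175) in exGF. The last pair of chaperones, the J-domain genes Dnajb9 and Dnajc10, passed in no group, with values of -0.14, 0.22 and -0.05 for Dnajb9 and -0.05, -0.02 and 0.03 for Dnajc10 in CON, GF and exGF. Dnajb9, which encodes the BiP cofactor ERdj4 and is a classical XBP1 target, ranged from 21.9 to 32 CPM in CON-SI and 25.5 to 37.8 in CON.

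Disulfide isomerases form and reshuffle the disulfide bonds of secretory proteins. Of 4 in the list, 2 rose in CON, 4 in GF and 3 in exGF, beside 2.35%, 7.87% and 4.6% of all genes tested. Pdia4 (chr6:47796141-47813430, minus strand) read 64.4, 63.4, 73.8 and 63.1 CPM in CON and 82.4, 95.9 and 111 in CON-SI. Pdia4 read 55.5, 51.1, 48.8 and 50.4 CPM in GF and 70.6, 83.2 and 106 in GF-SI. In exGF, Pdia4 read 65.5, 57.3, 62.1 and 56.9 CPM before and 82.7, 99.4 and 123 after. Pdia4 was clear of overlap in every group and rose by 0.53 ± 0.09 (adjusted p = 0.0116), 0.74 ± 0.10 (adjusted p = 0.00028) and 0.75 ± 0.10 (adjusted p = 0.00427). Pdia6 (chr12:17266545-17284770, plus strand) read 101, 117, 108 and 105 CPM in CON and 111, 141 and 177 in CON-SI. Pdia6 read 95.3, 99.1, 85.2 and 91.3 CPM in GF and 117, 139 and 159 in GF-SI. In exGF, Pdia6 read 106, 99.5, 113 and 101 CPM before and 119.9, 138 and 181 after. In CON 1 of 8 SI libraries fell within the pools, and in GF and exGF none did. Pdia6 rose by 0.39 ± 0.10 (adjusted p = 0.081), 0.58 ± 0.08 (adjusted p = 0.000395) and 0.42 ± 0.09 (adjusted p = 0.0345), and the CON call was lost in 9 of 17 alternatives.

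Pdia3 (chr2:121413775-121438687, plus strand) encodes ERp57, which works with calnexin and calreticulin. Pdia3 read 192, 142, 135 and 111 CPM in CON and 129.6, 163 and 219.9 in CON-SI. Pdia3 read 127, 112, 112 and 117 CPM in GF and 128, 171 and 201 in GF-SI. In exGF, Pdia3 read 169, 141, 131 and 115 CPM before and 156, 177 and 211 after. The pool CON-P1, rich in Gm42418, held more Pdia3 than 7 of 8 CON-SI libraries, and only the GF groups were separate. Pdia3 rose in GF by 0.53 ± 0.09 (adjusted p = 0.00229) and in exGF by 0.35 ± 0.10 (adjusted p = 0.0652), with 0.20 ± 0.15 (adjusted p = 0.522) in CON. P4hb (chr11:120560298-120573253, minus strand), the founding isomerase, read 63.9, 62.7, 77.5 and 73.5 CPM in CON and 62.5, 72.4 and 90.3 in CON-SI. P4hb read 69.3, 61.7, 61 and 71.4 CPM in GF and 69.3, 78.4 and 86.8 in GF-SI. In exGF, P4hb read 71.8, 63.1, 64.1 and 66.8 CPM before and 63.4, 68 and 80.4 after. Its groups overlapped throughout. P4hb rose in GF by 0.25 ± 0.07 (adjusted p = 0.0417), with 0.09 ± 0.10 (adjusted p = 0.715) in CON and 0.08 ± 0.08 (adjusted p = 0.592) in exGF.

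Of the 4 sensor genes, 1 passed in 1 group, GF, where 7.87% of all genes tested rose. Eif2ak3 (chr6:70844515-70905245, plus strand), encoding PERK, read 35.6, 28, 31.5 and 24.1 CPM in CON and 31.5, 34.2 and 38.2 in CON-SI. Eif2ak3 read 25.7, 26.5, 26.5 and 29.1 CPM in GF and 30.2, 32.6 and 36.1 in GF-SI. In exGF, Eif2ak3 read 36.2, 28.2, 26.6 and 32.1 CPM before and 28.1, 33.1 and 35.6 after. Only GF was without overlap, and there Eif2ak3 rose by 0.28 ± 0.06 (adjusted p = 0.0111), with 0.20 ± 0.09 (adjusted p = 0.301) in CON and 0.09 ± 0.09 (adjusted p = 0.604) in exGF. Ern1, Atf6 and Atf6b had fold changes from -0.07 (Atf6b in exGF) to 0.19 (Ern1 in exGF), all with intervals that included 0. The 95% interval for Ern1 ran from -0.10 to 0.35 in CON, -0.21 to 0.30 in GF and -0.06 to 0.45 in exGF. Ern1 mRNA was scarce at a mean of 1.12 RPKM, against 11.9 for Atf6, 9.62 for Atf6b and 5.3 for Eif2ak3.

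The 3 transcription factor genes all rose in CON, 2 rose in GF and 1 in exGF, beside 2.35%, 7.87% and 4.6% of all genes tested. Xbp1 (chr11:5520659-5525893, plus strand) is both the substrate of IRE1 and a target of ATF6, and gene counts do not tell its spliced mRNA from the unspliced one. Xbp1 read 36.4, 40.9, 49.7 and 42.1 CPM in CON and 62.6, 71.7 and 105 in CON-SI. Xbp1 read 45.4, 48.7, 40.3 and 40.3 CPM in GF and 48.2, 60.2 and 67.5 in GF-SI. In exGF, Xbp1 read 56.9, 50.8, 50.1 and 43.6 CPM before and 53, 64.6 and 82 after. The lowest CON-SI library stood above every CON pool, while 2 of 12 GF-SI and 1 of 8 exGF-SI libraries lay within their pools. Xbp1 rose by 0.85 ± 0.14 (adjusted p = 0.00992) in CON, 0.40 ± 0.10 (adjusted p = 0.0239) in GF and 0.40 ± 0.12 (adjusted p = 0.0695) in exGF.

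Atf4 (chr15:80255184-80257541, plus strand), whose protein is made when PERK slows translation, read 90.2, 95.6, 69.7 and 91 CPM in CON and 99.9, 110.0 and 127 in CON-SI. Atf4 read 95, 106, 105 and 102 CPM in GF and 90.3, 109 and 151 in GF-SI. In exGF, Atf4 read 101, 114, 101 and 105 CPM before and 102, 119 and 142 after. The CON pools, with CON-P3 the lowest, were the only ones below all their SI libraries. Atf4 rose in CON by 0.37 ± 0.09 (adjusted p = 0.067), a call lost in 8 of 17 alternatives, with 0.13 ± 0.10 (adjusted p = 0.421) in GF and 0.20 ± 0.08 (adjusted p = 0.169) in exGF. Ddit3 (chr10:127290774-127296288, plus strand) encodes CHOP, the factor of the late and pro-apoptotic phase, and shares 68 exon bases with the antisense gene Mars. Ddit3 read 10.4, 12.1, 11.6 and 10.6 CPM in CON and 13.8, 15.2 and 18 in CON-SI. Ddit3 read 10.5, 10.5, 8.64 and 10.7 CPM in GF and 12.4, 15.3 and 21.7 in GF-SI. In exGF, Ddit3 read 11.6, 14.5, 13.2 and 12.7 CPM before and 12, 15 and 20.9 after. CON and GF did not overlap with their SI groups, and exGF did. Ddit3 rose by 0.46 ± 0.09 (adjusted p = 0.0271) in CON and 0.62 ± 0.12 (adjusted p = 0.00597) in GF, with 0.28 ± 0.13 (adjusted p = 0.236) in exGF.

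**Figure D4:**
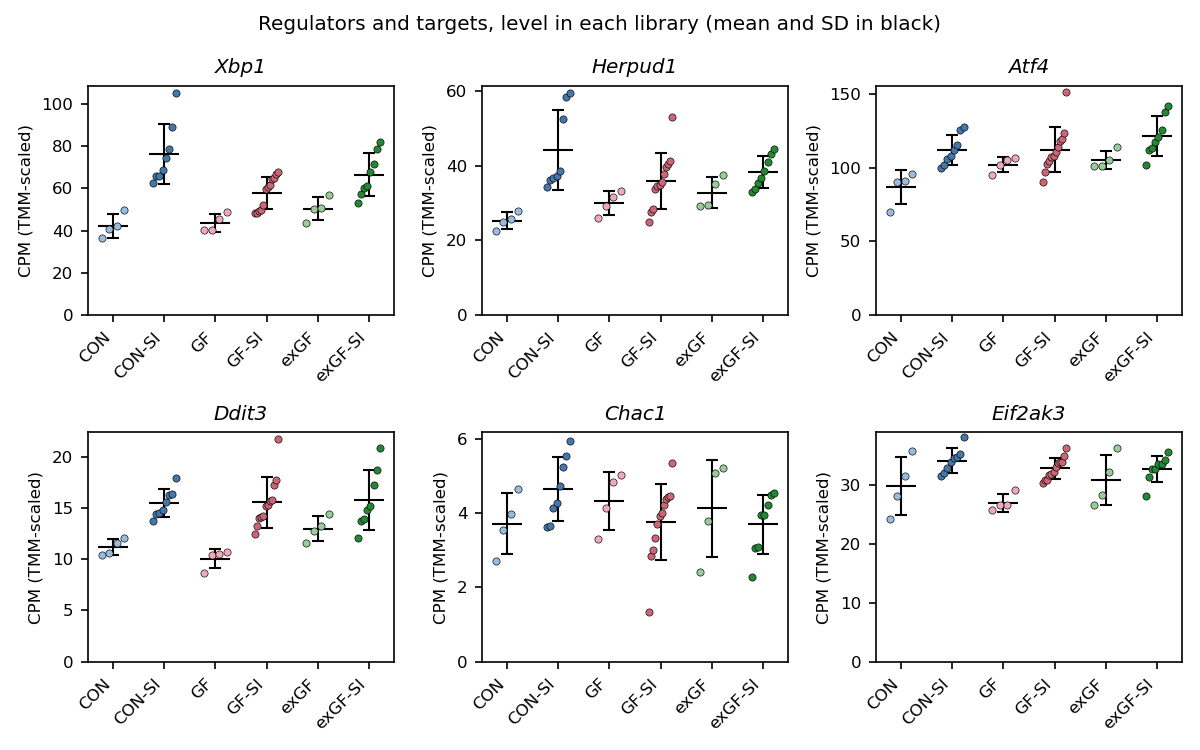
CPM of 6 regulators and targets in each of the 40 libraries by group, with the group mean and SD in black. Xbp1, Herpud1 and Atf4 separate CON from CON-SI fully and GF or exGF from their SI groups only in part, and Chac1 overlaps in every group.

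Among the 4 output and feedback genes of the PERK and ATF4 arm, 3 were tested and Ppp1r15b rose in each microbial group. The shares of all genes tested that rose were 2.35% in CON, 7.87% in GF and 4.6% in exGF. Ppp1r15b (chr1:133131143-133139783, plus strand) encodes CReP, the constitutive subunit that directs phosphatase to eIF2α, and shares 640 exon bases with the antisense gene Gm26616, which had 179 counts in all. Ppp1r15b read 61.4, 61.6, 62.4 and 62.4 CPM in CON and 76.1, 79.6 and 86.8 in CON-SI. Ppp1r15b read 65.3, 68.1, 65.3 and 65 CPM in GF and 73.7, 81 and 95 in GF-SI. In exGF, Ppp1r15b read 71.6, 73, 64.1 and 68.8 CPM before and 76.1, 85.4 and 95.3 after. Its pools were tight and lay below all SI libraries in every group. Ppp1r15b rose by 0.38 ± 0.06 (adjusted p = 0.00853), 0.32 ± 0.06 (adjusted p = 0.00591) and 0.31 ± 0.07 (adjusted p = 0.0389) in CON, GF and exGF. The stress-inducible paralogue Ppp1r15a, encoding GADD34, gave -0.05, -0.20 and -0.23 and passed in none. Chac1, a glutathione-degrading enzyme gene and a sharp readout of ATF4 in many cells, gave 0.32, -0.20 and -0.16, and its CPM ranged from 2.7 to 4.65 in CON and 3.61 to 5.94 in CON-SI. Trib3 stayed between 0 and 0.508 CPM in all libraries.

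In endoplasmic reticulum-associated degradation, 1 of 7 genes rose in each microbial group, beside 2.35%, 7.87% and 4.6% of all genes tested. With 7 genes, 1 call does not describe the class. In CON the gene that rose was Herpud1 (chr8:94386438-94395377, plus strand), a membrane scaffold of the retrotranslocation complex. Herpud1 read 22.5, 24.9, 25.7 and 27.9 CPM in CON and 34.2, 37.9 and 59.5 in CON-SI. Herpud1 read 31.5, 33.2, 26 and 29.3 CPM in GF and 24.9, 35.2 and 52.9 in GF-SI. In exGF, Herpud1 read 35, 37.5, 29.2 and 29.4 CPM before and 33, 37.7 and 44.4 after. Of the naïve pools, 3 of 4 in GF and 4 of 4 in exGF lay above every CON pool, and their SI groups overlapped with them. Herpud1 rose in CON by 0.80 ± 0.17 (adjusted p = 0.032), with 0.26 ± 0.14 (adjusted p = 0.287) in GF and 0.23 ± 0.10 (adjusted p = 0.21) in exGF.

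In GF and exGF the gene that rose was Derl2 (chr11:71007164-71019841, minus strand), one of the derlins of the retrotranslocation channel, which shares 231 exon bases with the antisense gene Mis12. Derl2 read 16.2, 21.3, 19.7 and 22.2 CPM in CON and 19.9, 24.3 and 27.5 in CON-SI. Derl2 read 20.1, 21.8, 19.4 and 20.1 CPM in GF and 21.1, 26.1 and 28.5 in GF-SI. In exGF, Derl2 read 19.7, 21.3, 19.5 and 20.9 CPM before and 22.8, 26.5 and 30.0 after. Only the exGF groups were separate. Derl2 rose by 0.33 ± 0.08 (adjusted p = 0.0191) in GF and 0.36 ± 0.08 (adjusted p = 0.038) in exGF, with 0.27 ± 0.10 (adjusted p = 0.202) in CON. Syvn1 and Sel1l, the ubiquitin ligase HRD1 and its adaptor, and Derl1, Derl3 and Edem1 passed in no group. Their values ran from -0.18 (Derl1 in GF) to 0.71 (Derl3 in CON, adjusted p = 0.185). Of the 3 genes of translocation, glycosylation and vesicle export, none passed, with Stt3a, a catalytic subunit of oligosaccharyl transferase, at 0.21, 0.12 and 0.15, the translocon gene Sec61b at -0.01, -0.21 and -0.44, and the COPII coat gene Sec24d at -0.35, 0.00 and -0.11 in CON, GF and exGF.

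Averaging the response over the microbial groups in one fit of all 40 libraries gave the most precise values. In this mean response 24 of 36 genes rose and 2 fell, where 26.7% of all 16111 genes passed in either direction, 14.4% upward and 12.2% downward. The median over the 36 was 0.25. Hspa5 rose by 0.92 ± 0.07 (adjusted p = 1.96e-12), Sdf2l1 by 1.11 ± 0.13 (adjusted p = 3.2e-08) and Creld2 by 0.86 ± 0.08 (adjusted p = 1.12e-09). 5 genes passed here that had passed in no single group. Upward these were Sel1l at 0.13 ± 0.04 (adjusted p = 0.00837), Stt3a at 0.17 ± 0.03 (adjusted p = 0.000215) and Derl3 at 0.56 ± 0.18 (adjusted p = 0.0253). The pair that fell, again without a call in a single group, was Sec61b at -0.22 ± 0.09 (adjusted p = 0.0645) and Ppp1r15a at -0.16 ± 0.07 (adjusted p = 0.0846), and these calls were lost in 7 and 17 of 45 alternatives. Of the 11 genes with ERSE or ERSE-II in their window, 10 rose in the mean response, Syvn1 being the exception at 0.09. Of the 21 genes with a window and neither element, 11 rose.

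Whether the response differed between microbial groups was tested as a difference of responses. None of the 36 genes passed in any of the 3 tests (edgeR, where 0.0931% of genes passed for GF minus CON and 0% in each of the others). At an unadjusted p under 0.05 there were 5, 2 and 2 genes for GF minus CON, exGF minus CON and exGF minus GF, where 15.8%, 5.83% and 11.4% of all genes did so, and DESeq2 called 0 each time. Over all 29592 genes tested, DESeq2 called 495, 1 and 43. For Hspa5 the differences by edgeR were 0.14 (95% interval -0.17 to 0.46), 0.12 (-0.20 to 0.44) and -0.02 (-0.33 to 0.29). Over the 36 genes the differences ran from -0.61 to 0.39 for GF minus CON and -0.58 to 0.24 for exGF minus CON. For exGF minus GF they ran from -0.34 to 0.28. Sdf2l1, Xbp1 and Herpud1 had smaller fold changes in GF and exGF than in CON, but the differences, which share the CON libraries, did not pass. The difference for Xbp1 was -0.44 ± 0.17 (adjusted p = 0.201) for GF minus CON and -0.44 ± 0.18 (adjusted p = 0.814) for exGF minus CON. For Herpud1 it was -0.54 ± 0.21 (adjusted p = 0.202) and -0.57 ± 0.21 (adjusted p = 0.814). Hsp90b1 differed in the other direction, by 0.39 ± 0.15 (adjusted p = 0.203) for GF minus CON, and passed at 0.45 (adjusted p = 0.0955) only when the library CON-S7 was left out.

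Before social interaction, none of 35 genes differed between the naïve groups at an adjusted p of 0.1. In GF against CON 0.142% of all genes passed, in exGF against CON 0.104%, and in exGF against GF 0%. At an unadjusted p under 0.05 there were 7, 5 and 8 of the 35 genes, where 11%, 5.43% and 9.42% of all genes did so. DESeq2 called 1, 0 and 0, the 1 being Pdia4, lower in GF. Over all genes DESeq2 called 155 of 25925, 60 of 25490 and 72 of 25888. The 4 CON pools held 63.1 to 73.8 CPM of Pdia4 and the 4 GF pools 48.8 to 55.5, without overlap, a difference of -0.36 ± 0.09 (adjusted p = 0.254) by edgeR. In GF, Pdia6 also lay below CON without overlap and Ppp1r15b above it, where 2.91% of all genes lay below and 3.02% above. In exGF, Herpud1, Atf4 and Ppp1r15b lay above CON without overlap (1.89% of all genes). Herpud1 read 29.2 to 37.5 CPM in exGF and 22.5 to 27.9 in CON, and the difference was 0.36 ± 0.11 (adjusted p = 0.61). Dnajb11, Pdia6, Ddit3 and Pdia4 lay above GF in exGF without overlap (2.59%).

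After social interaction the microbial groups differed in 1 of the 36 genes. Xbp1 read 48.2, 60.2 and 67.5 CPM in GF-SI against 62.6, 71.7 and 105 in CON-SI (lowest, median and highest). The groups overlapped, and the log2 fold change of GF-SI over CON-SI was -0.40 ± 0.10 (adjusted p = 0.0623), where 1.1% of all genes passed. Xbp1 lost this call without the choroid plexus rich libraries (-0.40, adjusted p = 0.108) and in 6 of 25 alternatives in all. Sdf2l1 at -0.50 ± 0.16 (adjusted p = 0.157) and Creld2 at -0.36 ± 0.11 (adjusted p = 0.161) did not pass in GF-SI against CON-SI, though DESeq2 called both. Canx, at 0.17 ± 0.06 (adjusted p = 0.178), did not pass either but was called by DESeq2 (0.17, adjusted p = 0.0986) and by edgeR without the library CON-S7 (0.20, adjusted p = 0.0529). In exGF-SI against CON-SI and exGF-SI against GF-SI, 0 genes passed (1.31% and 0.0995% of all genes), with 3 and 8 at an unadjusted p under 0.05 (13.5% and 12.9% of all genes) and with 0 and 1 called by DESeq2, the 1 being Creld2, higher in exGF-SI. DESeq2 called 521 of all 28039 genes in GF-SI against CON-SI. It called 558 of 27696 in exGF-SI against CON-SI and 296 of 27805 in exGF-SI against GF-SI. The value of Hspa5 by edgeR was -0.06 (95% interval -0.23 to 0.11) for GF-SI against CON-SI. For exGF-SI against GF-SI it was 0.22 (0.05 to 0.39, edgeR adjusted p = 0.276).

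Among single animals after social interaction, some other genes of the list varied with Hspa5. Pearson's r and Spearman's rho of log2 CPM were computed for 35 genes in each SI group, 105 relations in all, with permutation p-values adjusted over the 105. All values of a library share its scaling. Genes outside the list were not correlated with Hspa5, so the counts and medians have no share over all genes beside them. Whether these relations exceed those of other genes was not tested. The median r was 0.47 for CON-SI, 0.21 for GF-SI and 0.48 for exGF-SI, where 1, 4 and 4 relations passed an adjusted p of 0.1 by Pearson's r. In CON-SI (n = 8, exact), Pdia6 had r = 0.90 (p = 0.00223, adjusted 0.0469) and rho = 0.90 (p = 0.00456, adjusted 0.0958), with r = 0.77 after leaving out the 2 libraries farthest in Hspa5.

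In GF-SI (n = 12, 100000 permutations), Creld2 had r = 0.88 (p = 0.00016, adjusted 0.0168) and rho = 0.87 (p = 0.00062, adjusted 0.0325), with r = 0.76 without the 2 farthest libraries. Ddit3 had r = 0.84 (p = 0.00087, adjusted 0.0304) and rho = 0.79 (p = 0.0033, adjusted 0.0958), and r = 0.52 without them. Pdia4 had r = 0.79 (p = 0.00221, adjusted 0.0469) and rho = 0.69 (p = 0.0152, adjusted 0.202), and r = 0.53 without them. Dnajc3 had r = 0.77 (p = 0.00459, adjusted 0.0535) and rho = 0.57 (p = 0.0588, adjusted 0.343), and r = 0.32 without them. Leaving out the libraries farthest in Hspa5 narrows its range, which can lower r by itself. Without the 2 choroid plexus rich libraries (n = 10), r was 0.85 for Creld2, 0.78 for Ddit3, 0.69 for Pdia4 and 0.60 for Dnajc3.

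In exGF-SI (n = 8, exact), Canx had r = 0.92 (p = 0.000818, adjusted 0.0304) and rho = 0.98 (p = 0.000397, adjusted 0.0325), with r = 0.83 without the 2 farthest libraries. Pdia4 had r = 0.91 (p = 0.00375, adjusted 0.0492) and rho = 0.81 (p = 0.0218, adjusted 0.229), and r = 0.81 without them. Pdia6 had r = 0.89 (p = 0.00362, adjusted 0.0492) and rho = 0.76 (p = 0.0368, adjusted 0.277), and r = 0.79 without them. Dnajc3 had r = 0.89 (p = 0.00357, adjusted 0.0492) and rho = 0.90 (p = 0.00456, adjusted 0.0958), and r = 0.90 without them. Leaving out the 3 choroid plexus rich exGF-SI libraries would leave 5, too few for a correlation.

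**Figure D5:**
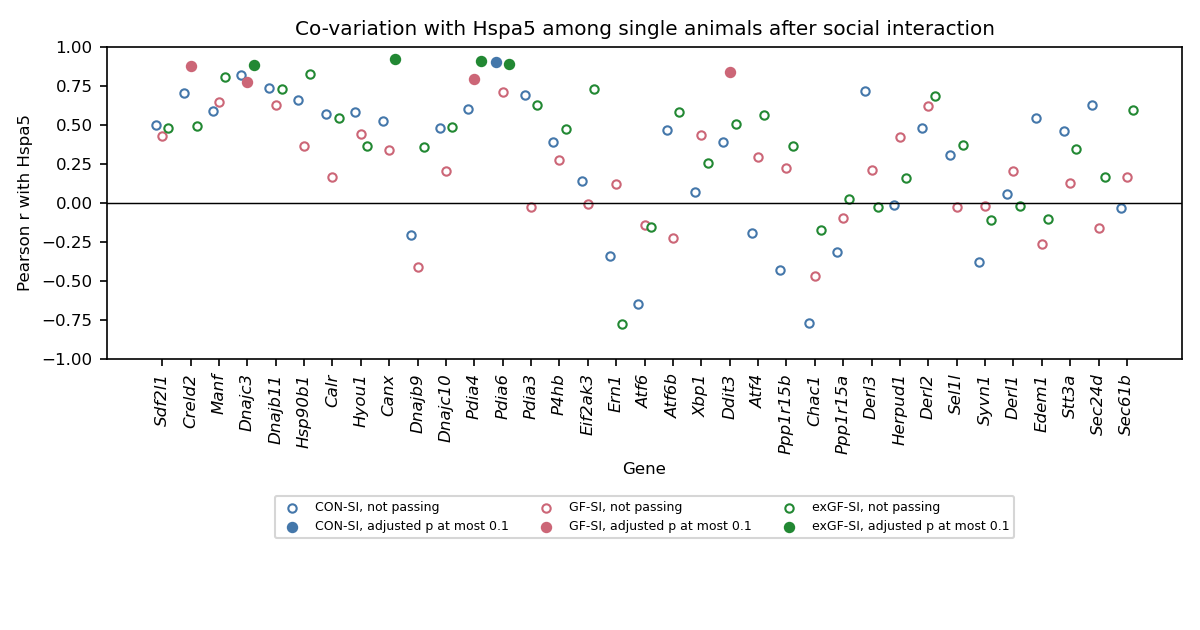
Pearson r of each gene's log2 CPM with that of Hspa5 among the single animals of each SI group (blue CON-SI, red GF-SI, green exGF-SI). Filled points have an adjusted permutation p of 0.1 or less, all lie at 0.77 or above, and folding genes on the left lie mostly above 0.

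Other genes of the same machinery were followed in lists of 140 genes. In the mean response 31 of 136 tested rose and 13 fell, beside 14.4% and 12.2% of all genes, with a median log2 fold change of 0.03. Among 27 other targets of ATF4 and CHOP 8 rose and 2 fell. Gpt2, alanine transaminase 2, rose by 0.47, Atf3, a stress-inducible transcription factor, by 1.66 and Cebpg, a partner of ATF4, by 0.27. Among 25 other folding genes 7 rose and 2 fell, among them the J-domain gene Dnajc1 (0.47), the oxidase gene Ero1lb (0.31) and the glycoprotein folding sensor Uggt1 (0.17). Of 21 other degradation genes 3 rose and 2 fell, with Ubxn4 at 0.25, Edem3 at 0.19 and Erlec1 at -0.19. In oligosaccharyl transfer 3 of 13 rose and 2 fell (Magt1 at 0.29, Stt3b at 0.21 and Rpn1 at 0.18). In translocation and signal peptide cleavage 4 of 19 rose and 1 fell (Sec61a1 at 0.28, Spcs3 at 0.19 and Srpr at 0.13). COPII export had 2 rising and 2 falling of 16 (Tmed2 at 0.17, Sec24c at 0.12 and Sec23b at -0.10). Other signalling genes had 4 rising and 2 falling of 16 (Map3k5 at 0.26, Bbc3 at -0.46 and Mbtps1 at -0.13).

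Marker levels of other cell types were set beside these results. The 7 tested choroid plexus markers had median log2 fold changes of -1.03 in CON, 1.4 in GF and 1.93 in exGF, with 1 falling in CON and 1 rising in exGF, and none of the 8 markers was at 0 throughout a group. Ttr, the most abundant, ranged from 14.3 to 17.4 CPM in GF and from 8.63 to 897 in GF-SI. Without the choroid plexus rich libraries, 19 of 36 genes of the list rose in GF, and 14 rose and 1 fell in exGF. Of all genes, 1429 of 15354 and 1133 of 14699 passed there. The part of choroid plexus tissue in the responses was not tested. Plasma cells, which carry a strong unfolded protein response, were near absent, with 6 markers summing to at most 2.75 CPM in any library and Tnfrsf17 at 0 throughout CON and exGF-SI. Blood cell markers summed to 61.2 to 105 CPM in CON and 90.1 to 146 in CON-SI, with 1 of 4 tested rising in CON.

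Microglia markers moved with the mean response. Of 6, 4 fell (P2ry12 by 0.26, Cx3cr1 by 0.27, Aif1 by 0.25 and Csf1r by 0.15) and C1qa rose by 0.22, with a list median of -0.20, beside 12.2% of all genes falling. By microbial group, 1 of 6 rose in CON, 1 fell in GF and 2 fell in exGF. Their summed CPM lay between 141 and 171 in CON, 143 and 166 in GF and 139 and 174 in exGF, and between 141 and 167 in CON-SI, 123 and 190 in GF-SI and 125 and 154 in exGF-SI, so that the groups overlapped. In the same mean response 2 of 6 inhibitory neuron markers fell (Sst and Slc32a1), and of 6 endothelium and pericyte markers 2 fell (Cldn5 and Pdgfrb) and 1 rose (Kcnj8). Of 8 amygdala markers 2 fell and 1 rose, and 1 of 6 moved each way among astrocyte, excitatory neuron and striatum markers. None of the 6 oligodendrocyte, 6 meninges, 4 tested blood cell or 2 tested plasma cell markers passed. The part of these cell types in the result was not tested.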

How the data were processed

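The deposited table held raw counts per gene, which the authors made from stranded, ribosomal RNA-depleted paired-end libraries by trimming with Trimmomatic 0.32, alignment with STAR 2.4.0f1 to GRCm38.p3 and counting with HTSeq 0.6.0 against Ensembl release 78 without strand. Of 37 genes, 11 share exon bases with another gene. In the authors' counting mode (intersection-nonempty), a read lying only in shared bases is ambiguous and counted for neither gene.

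Columns were assigned to groups by name, and no label linked a column to a particular animal. Counts were scaled by TMM and tested with edgeR 4.0.16 (quasi-likelihood F-test, low counts removed by filterByExpr within the groups compared) in R 4.3.3, with Benjamini-Hochberg adjustment over all genes and a threshold of 0.1. Differences of responses and the mean response came from one fit of 6 groups. CPM was TMM-scaled, and RPKM used union exon length (GENCODE vM21). Correlations used log2(CPM + 0.1). The script was tested on simulated data. Alternatives were DESeq2 1.42.0, RLE scaling, no filter, one fit of all groups, leaving out 5 libraries with more than 5% Gm42418 or each library in turn, and, chosen after seeing the data, leaving out libraries with more than 500 CPM of choroid plexus markers. The genes, lists and rules were chosen with earlier results of these data known. Per-library values are given for genes called in any response, and of other lists up to 3 genes with the smallest p in the mean response are named.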

Additional observations from a re-analysis of the deposited data

Results flagged for a closer look

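In 9 of 185 sets of libraries tested, 1 library stood apart from the rest of its group by Dixon's criterion. Chance alone marks about 5% of such sets. The GF-SI group was not screened in this way. In naïve CON, Pdia4 was highest in CON-P3, at 73.8 CPM against 63.1 to 64.4 in the other pools, and this library is among those rich in Gm42418. Sec61b was highest in CON-P2, at 15.1 CPM against 8.90 to 9.93, and Sel1l was lowest in CON-P4, at 196 CPM against 218 to 221. In naïve GF, GF-P3 was both highest for Atf6, at 134 CPM against 103 to 107, and lowest for Ddit3, at 8.64 CPM against 10.5 to 10.7. Ppp1r15b was highest in GF-P2, at 68.1 CPM against 65.0 to 65.3.

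In exGF-SI, exGF-S5 was highest for both Canx, at 665 CPM against 486 to 569, and Pdia6, at 181 CPM against 119.9 to 147. Atf6 was highest in exGF-S8, at 169 CPM against 94.9 to 114.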

How the results depend on the processing

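No fold change that passed turned its direction under any alternative. RLE scaling and the single fit of all groups kept every single-gene call, and DESeq2 lost 1 of 74, the fall of Ppp1r15a in the mean response. Both DESeq2 and the single fit added Hyou1 and Stt3a rising in CON, Sel1l rising in GF and Sec61b falling in exGF. The single fit also added Derl2 rising in CON. Without the 5 libraries rich in Gm42418, the count of called genes fell to 1 in CON-SI against CON and 6 in exGF-SI against exGF. This left 2 naïve pools in each, and of all genes 26 of 15887 and 155 of 15854 passed. For GF-SI against CON-SI the count was 4 by DESeq2, 3 in the single fit of all groups and 0 without the choroid plexus rich libraries. Of all genes, 521 of 28039, 561 of 16111 and 72 of 14973 passed there. DESeq2 gave 1 for GF against CON and 1 for exGF-SI against GF-SI, where it called 155 of 25925 and 296 of 27805 genes.

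Leaving out each library in turn gave 10 to 14 called genes in CON-SI against CON, 17 to 21 in GF-SI against GF, 5 to 15 in exGF-SI against exGF, 0 to 3 in GF-SI against CON-SI and 0 to 1 for the GF minus CON response difference, with 24 to 26 in the mean response and 0 to 0 elsewhere. The lowest exGF count came without exGF-P2. Shares over all genes are not given for these fits, so whether a change was particular to the list cannot be read from them. The count for GF-SI against CON-SI was 0 without CON-S3, CON-S5, CON-S10, CON-S11 or GF-S5 and 3 without CON-S7. The cause was not tested, beyond the smaller number of libraries. No paired analysis was possible because the column names carry no number that links animals between groups. With 4 pools in each naïve group, small differences between naïve groups were not detectable.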

Other observations

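ERSE or ERSE-II matches were not confined to the 37 genes. Among other genes with such a match in the same promoter window, 16 of 38 could be tested in the mean response, and 2 rose and 1 fell, with a median log2 fold change of 0.01. Rbm39, a splicing factor gene, rose by 0.26 (edgeR adjusted p = 0.000287), Lgalsl by 0.13 (adjusted p = 0.0244), and Acacb, an acetyl-CoA carboxylase gene, fell by 0.37 (adjusted p = 0.0751). They were named after their values were seen. The share of all genes tested that rose was 14.4%.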
